A study of Mus musculus with 15 samples.

Results

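Acute phase proteins are plasma proteins that hepatocytes make and release in greater amount when the body meets infection or injury. Cytokines such as interleukin 6 and interleukin 1 reach receptors on the hepatocyte, and the signal passes through STAT3, NF-kB and C/EBP factors to the promoters of these genes. In healthy liver some of them (haptoglobin, hemopexin) are made at a high level all the time, while others (the inducible serum amyloid A proteins, lipocalin 2) are low until they are induced. The 10 genes described here were chosen by name as hepatocyte acute phase genes: Saa1, Saa2, Saa4, Orm1, Orm2, Hp, Hpx, Lcn2, Crp and Apcs. They are 10 of the 55984 genes counted, and 10 of 10 passed the filter on low counts that left 17488 genes for testing.

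The hepatocytes came from livers of WT adult male C57BL/6JJcl mice, all untreated, that were digested by collagenase perfusion, stained for DNA with Hoechst and sorted by flow cytometry. The 2n-whole population held all diploid cells and the 4n-whole population all tetraploid cells. Tetraploid cells with a high Hoechst peak formed 4n-top, enriched for cells with a single nucleus, and those with a low peak formed 4n-bottom, enriched for binucleated cells. 4n-top was taken after a single round of sorting and by the study's account still held many binucleated cells, so it is an enrichment and not a pure population, and 4n-whole cells include both kinds. Each of 4 mice gave a library of 2n-whole, of 4n-whole and of 4n-bottom, and mice 2, 3 and 4 also gave 4n-top, 15 libraries in all. The ages of the single mice were not given in the sources used here.

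The libraries held between 22049498 and 42096421 counts, so that 3 counts, the detection floor used here, were worth 0.0693 to 0.120 CPM. CPM are counts scaled for library size, here with the trimmed mean of M values (TMM). All 8 hepatocyte markers had counts in every library. The markers of other liver cells were low beside them: the sum over 8 hepatocyte markers was at least 82641 CPM, and the sum over 10 Kupffer cell markers at most 8.10 CPM. The 10 acute phase genes together took between 0.538% and 0.760% of the counts of a library. In bulk samples such as these, fewer cells that express a gene and less RNA of it per cell cannot be told apart.

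The serum amyloid A genes lie side by side on chromosome 7: Saa1 at chr7:46389916-46392547 on the minus strand, Saa2 at chr7:46401214-46403737 on the plus strand and Saa4 at chr7:46377406-46382035 on the minus strand (GRCm39). Orm1 at chr4:63261052-63272189 and Orm2 at chr4:63280686-63284115, both on the plus strand, encode the alpha-1-acid glycoproteins (orosomucoids), which bind lipophilic compounds in plasma. These close copies matter for the counts, since reads from identical stretches cannot be assigned to either. The first 120 coding bases of each copy are printed here, with the bases that differ within the pair in capitals.
Saa1: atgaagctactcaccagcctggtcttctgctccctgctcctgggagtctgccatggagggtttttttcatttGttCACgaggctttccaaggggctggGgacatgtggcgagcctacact
Saa2: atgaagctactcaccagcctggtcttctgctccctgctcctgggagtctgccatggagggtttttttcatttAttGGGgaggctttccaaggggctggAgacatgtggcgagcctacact
Orm1: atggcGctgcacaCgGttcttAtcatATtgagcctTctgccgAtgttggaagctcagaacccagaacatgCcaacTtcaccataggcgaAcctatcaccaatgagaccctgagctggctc
Orm2: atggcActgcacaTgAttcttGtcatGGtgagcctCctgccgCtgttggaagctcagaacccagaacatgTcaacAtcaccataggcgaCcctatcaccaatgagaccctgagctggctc
Over the whole coding sequence of 369 bases, Saa1 and Saa2 differed at 18 positions (95.1% identity). Orm1 and Orm2 differed at 63 of 624 positions (89.9% identity). Of all stretches of 100 bases in the canonical Orm1 transcript, 6.47% occurred unchanged in Orm2, and 7.99% of those of Orm2 in Orm1. The share was 0.542% for Saa2 against Saa1 and 0 for the other 7 genes. The counts of Orm2, the rarer copy, are therefore the ones most open to reads from its neighbour, and how such reads were assigned is not given in the sources used here. The long noncoding gene Gm74180 spans Saa1 on the same strand and Saa2 on the opposite strand. Crp overlaps the transcribed pseudogene Gm38051 on the same strand. Orm1 overlaps the pseudogene Gm11212 on the same strand and the noncoding Gm52743 on the opposite strand.

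The promoters were read because acute phase genes are known for C/EBP, STAT, HNF1 and NF-kB sites near their start. The 250 bases before the canonical start of Saa1 (chr7:46392548-46392797, minus strand) and Saa2 (chr7:46400964-46401213, plus strand) are shown with the match to the C/EBP pattern in capitals. For Orm1 (chr4:63262671-63262700, plus strand) and Orm2 (chr4:63280561-63280590, plus strand), only the 30 bases around the pair of C/EBP matches are shown, and for Lcn2 (chr2:32277992-32278021, minus strand) the 30 bases around the NF-kB match.
Saa1 promoter: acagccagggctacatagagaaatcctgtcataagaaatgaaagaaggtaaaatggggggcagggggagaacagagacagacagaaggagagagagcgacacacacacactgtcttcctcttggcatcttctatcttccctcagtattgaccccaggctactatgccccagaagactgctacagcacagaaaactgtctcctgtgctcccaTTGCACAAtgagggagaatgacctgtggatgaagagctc
Saa2 promoter: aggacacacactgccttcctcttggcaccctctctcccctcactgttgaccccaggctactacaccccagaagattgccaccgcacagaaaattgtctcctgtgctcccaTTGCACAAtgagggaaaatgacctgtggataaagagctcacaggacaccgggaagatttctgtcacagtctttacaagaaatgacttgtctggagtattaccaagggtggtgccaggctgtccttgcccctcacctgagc
Orm1 C/EBP matches: acattTTGCGCAAgacaTTTCCCAAgtgct
Orm2 C/EBP matches: acattTTGCGCAAgacaTTTCCCAAgtgct
Lcn2 NF-kB match: caaagccctgGGAATGTCCCtctggtcccc
The C/EBP pattern TTNNGNAA, searched on both strands, was found in the 250 bases of 8 of the 10 genes (not in Hp and Apcs), against 36.9% of 21770 mouse promoters of that length. The first matched base lay 39 bases before the start of Saa1 and 140 before that of Saa2. The matched pair began 76 bases before the start of Orm1 and 120 before that of Orm2, and the 30 bases printed were the same in both genes. The STAT pattern TTCNNNGAA was found in 0 of the 10 windows, against 7.7% of all promoters, and the HNF1 pattern GTTAAT in 0, against 6.28%. The NF-kB consensus was found in Lcn2 alone, 202 bases before its start, against 4.23% of all promoters. These matches describe letters in short windows, and the windows of Orm1 and Lcn2 overlap exons of other transcripts at the same locus.

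Per kilobase of canonical transcript, the mean levels spanned a 1049-fold range over the 15 libraries. Hpx, which carries free heme in plasma, was highest at 2554 ± 317 CPM per kilobase (SD over 15 libraries), followed by Hp, the hemoglobin scavenger haptoglobin, at 1296 ± 225. Orm1 followed at 374 CPM per kilobase. Crp, the pentraxin C-reactive protein, stood at 112 and Saa4, the constitutive member of the serum amyloid A family, at 91.0, and their ranges overlapped although Crp was higher in 15 of 15 libraries. The inducible Saa1 stood at 27.1, Apcs (serum amyloid P, the second pentraxin, and in the mouse the more responsive one) at 23.8, Saa2 at 12.1 and Orm2 at 12.0. Neighbours in that group overlapped, with Saa1 above Apcs in 9 of 15 libraries and Saa2 above Orm2 in 6 of 15. Lcn2, an iron-siderophore binding protein made by hepatocytes and by myeloid cells, was last at 2.44 CPM per kilobase, below Orm2 in 15 of 15 libraries. The order from Crp to Saa4 and among Saa1, Apcs, Saa2 and Orm2 changed when all annotated exons were used for the length. These levels rested on 24 to 174 counts per library for Lcn2 and on 83269 to 189142 counts for Hpx.

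**Figure D1:**
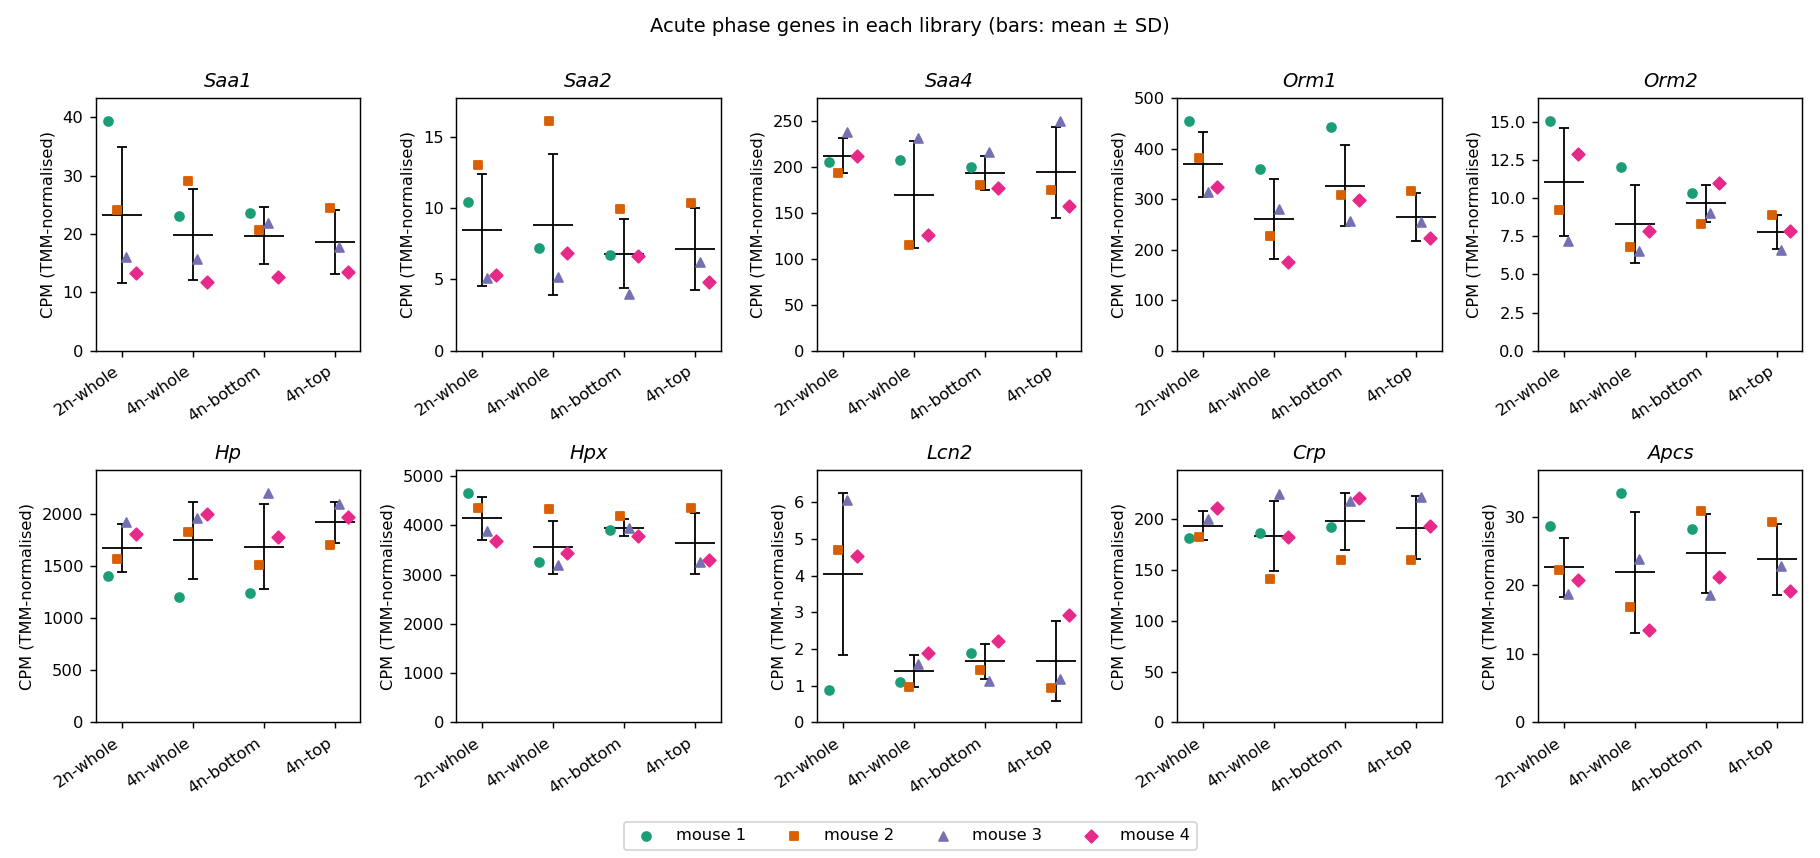
Level of each of the 10 acute phase genes (vertical axis, TMM-normalised CPM, linear from 0) in the 15 libraries, by population, with a symbol and colour per mouse and horizontal bars for mean ± SD. In each gene the 4 populations overlap, and in Hp the 3 libraries of mouse 1 are the lowest of all.

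The first comparison asked whether acute phase genes differ between tetraploid and diploid hepatocytes. In 4n-whole against 2n-whole, Orm1 and Lcn2 were lower and the other 8 genes did not pass the test. Orm1 fell to 0.697 of its diploid level and Lcn2 to 0.357. Of the 10 genes, 2 were called (adjusted p below 0.05 and a change above 0.5 on the log2 scale, edgeR's quasi-likelihood test with the mouse as a block), against 3.47% of the 17488 genes tested. Both were lower, as were 1.73% of all genes. The median log2 fold change of the 10 genes was -0.21, against -0.01 over all genes tested. At an unadjusted p below 0.05 the count was 5 of 10, against 20.4% of all genes.

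Orm1 stood at 455, 383, 314 and 325 CPM in the 2n-whole libraries of mice 1 to 4 and at 360, 228, 281 and 176 CPM in the 4n-whole libraries. The tetraploid library was the lower of the pair in 4 of 4 mice, but the populations overlapped, since mouse 1 had more Orm1 in its tetraploid cells than mice 3 and 4 had in their diploid cells. The log2 difference was larger in mice 2 and 4 (-0.75 and -0.89) than in mice 1 and 3 (-0.34 and -0.16). The 4n-whole libraries of mice 2 and 4 held 22049498 and 28612634 counts, the fewest of that population. Their TMM factors (1.13 and 1.11) were the highest of the 15 libraries. The part of these library traits was not tested. The means were 369 ± 64.5 (SD, n = 4) and 261 ± 78.8 CPM (n = 4). The log2 fold change was -0.52 ± 0.11 (SE; 95% interval -0.74 to -0.30; edgeR adjusted p = 0.00385). That value lies close to the fold limit of 0.5. Leaving out mouse 2 gave -0.45 (adjusted p = 0.0106), inside the limit, and leaving out mouse 4 gave -0.41 (adjusted p = 0.0774). Without the mouse block the value was -0.50 (adjusted p = 0.354).

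Orm2, the second orosomucoid gene, was at 15.1, 9.20, 7.16 and 12.9 CPM in 2n-whole and at 12.1, 6.82, 6.53 and 7.84 CPM in 4n-whole. It was the lower of the pair in tetraploid cells of 4 of 4 mice, and the populations overlapped. Its log2 fold change of -0.41 (95% interval -0.77 to -0.05) did not pass (adjusted p = 0.18).

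Lcn2 was at 0.887, 4.71, 6.05 and 4.54 CPM in the 2n-whole libraries of mice 1 to 4, from 36, 156, 174 and 158 counts. In 4n-whole it was at 1.11, 0.962, 1.60 and 1.90 CPM, from 43, 24, 60 and 60 counts. Mice 2, 3 and 4 thus had more Lcn2 in diploid cells, while the 2n-whole library of mouse 1 was the lowest of all 15 and lay below its own 4n-whole library. The log2 fold change was -1.49 ± 0.43 (SE; 95% interval -2.37 to -0.61; edgeR adjusted p = 0.0388), with 3 of 4 mice in that direction. The call was lost on leaving out mouse 2 (-1.20, adjusted p = 0.17), mouse 3 (-1.27, adjusted p = 0.102) or mouse 4 (-1.54, adjusted p = 0.166), and without the mouse block (-1.53, adjusted p = 0.244).

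Markers of other cells were read beside Lcn2. The summed level of 10 Kupffer cell markers in the 2n-whole libraries was 0.764, 3.74, 6.05 and 8.10 CPM in mice 1 to 4, with mouse 1 lowest as for Lcn2. In the 4n-whole libraries it was 1.39, 3.29, 1.17 and 1.58 CPM, where mouse 2 had the most Kupffer signal and the least Lcn2. In 4n-top, mouse 2 again had the most Kupffer signal (2.75 CPM) and the least Lcn2, and mouse 4, with the most Lcn2, had 1.05 CPM. In 4n-bottom, mouse 3 had the least Kupffer signal (0.686 CPM) and the least Lcn2 (1.12 CPM). There mouse 2 had the most Kupffer signal (3.53 CPM) and mouse 4 the most Lcn2 (2.21 CPM). Of the 10 Kupffer cell markers, 7 passed the filter on low counts. In 4n-whole against 2n-whole their median log2 fold change was -1.45, 0 were called by edgeR and 1 had an unadjusted p below 0.05. Clec4f, the defining Kupffer cell marker, had 0 counts in the 2n-whole library of mouse 1. The sum of 5 biliary markers was 34.6 to 47.4 CPM in 2n-whole and at most 31.2 CPM in 4n-whole, with Spp1 (osteopontin; log2 fold change -2.81, adjusted p = 2e-05) and Sox9 (-0.62, adjusted p = 0.00229) called lower. Among the 2n-whole libraries the biliary sum (47.4 CPM) and the neutrophil sum (0.739 CPM) were highest in mouse 1, where Lcn2 was lowest. The defining biliary markers Krt19 and Epcam were at most 1.33 and 0.765 CPM in any library. The 9 neutrophil markers together had between 0 and 30 counts per library, none passed the filter, and S100a8 and S100a9 had 0 counts in every library. The 8 endothelial markers summed to 12.1 to 21.5 CPM in 2n-whole and 3.35 to 26.7 CPM in 4n-whole, with 0 of 8 called and 2 at an unadjusted p below 0.05. Their median log2 fold change was -0.91. The 7 stellate cell markers summed to 3.18 to 5.46 and 1.77 to 3.53 CPM, with 0 of 5 tested called or at an unadjusted p below 0.05, and the 8 lymphocyte markers to at most 1.15 CPM. The median log2 fold change of the 5 stellate cell markers tested was -1.57. The part of these other cells in the Lcn2 and Orm1 differences was not tested. Markers of position along the liver lobule also differed in 4n-whole against 2n-whole, in which 3.47% of all genes were called. Of 12 markers each, 11 pericentral genes (91.7%) rose in 4n-whole and 3 periportal genes (25%) fell (Apoa4, Cyp2f2 and Hsd17b13). Their part was not tested either, and the diploid cells were spun faster and longer than the tetraploid cells after sorting, which cannot be told apart from ploidy.

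**Figure D2:**
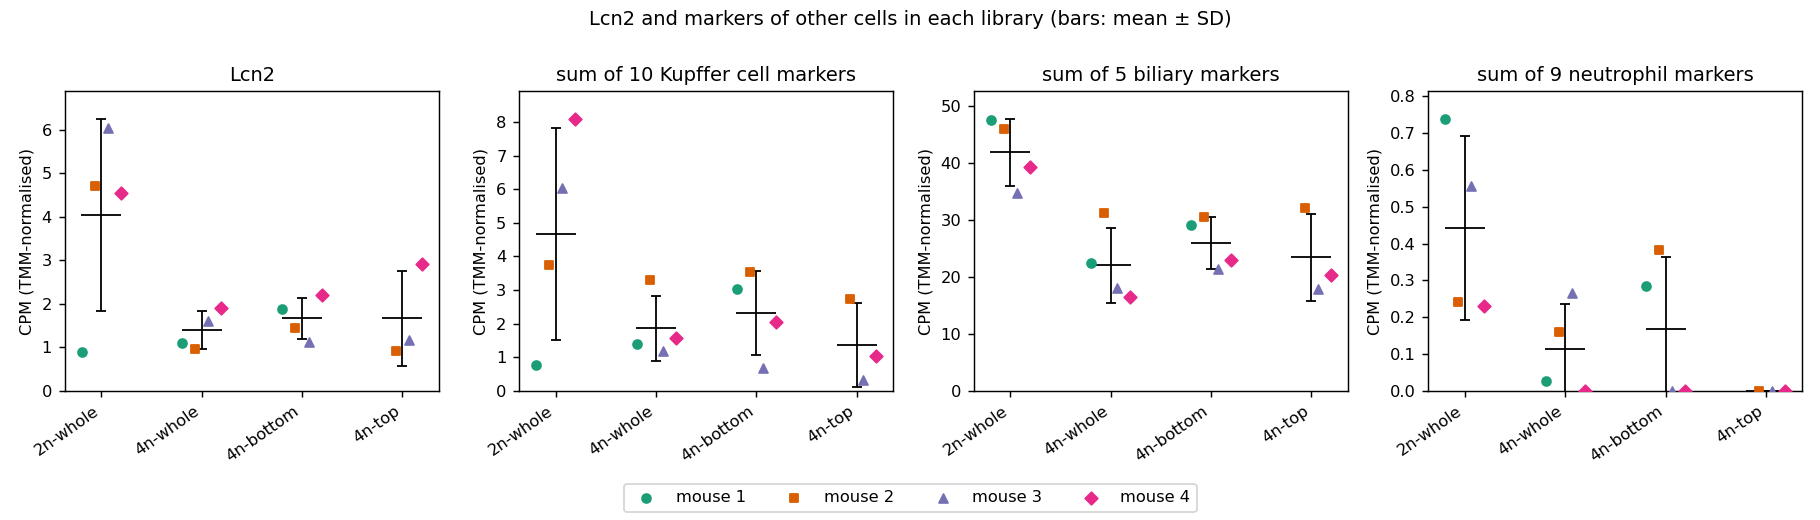
Lcn2 and the summed levels of Kupffer cell, biliary and neutrophil markers (vertical axes, TMM-normalised CPM, linear from 0) in the 15 libraries by population, with a symbol and colour per mouse and bars for mean ± SD. The 2n-whole library of mouse 1 is lowest among the 2n-whole libraries both for Lcn2 (0.887 CPM) and for the Kupffer markers (0.764 CPM), and the biliary sum is above 34 CPM in 2n-whole alone.

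The remaining genes gave smaller differences. Saa4 was at 206, 194, 239 and 212 CPM in 2n-whole and at 208, 115, 232 and 126 CPM in 4n-whole, so the drop was seen in mice 2 and 4 while mice 1 and 3 had like levels in both populations. Mice 2 and 4 are those whose 4n-whole libraries had the highest TMM factors. The log2 fold change of Saa4, -0.37 ± 0.11 (SE; edgeR adjusted p = 0.0534), did not pass, and became -0.51 (adjusted p = 0.0187) without mouse 1. Hpx was lower in tetraploid cells of 4 of 4 mice by a small amount (log2 fold change -0.23, 95% interval -0.39 to -0.06, adjusted p = 0.0956). For 5 of the 10 genes the whole interval lay within 0.5 on either side of 0: Hpx, Crp (-0.09, interval -0.28 to 0.09), Hp (0.04, interval -0.13 to 0.21), Apcs (-0.08, interval -0.41 to 0.25) and Saa2 (0.04, interval -0.37 to 0.45). Saa1 was at -0.19, with an interval (-0.52 to 0.13) that reached just past that limit.

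The second comparison asked whether tetraploid cells enriched for a single nucleus differ from those enriched for 2 nuclei. In 4n-top against 4n-bottom, 0 of the 10 genes were called, against 0.0114% of all genes (2 of 17488), and 0 had an unadjusted p below 0.05, against 2.79% of all genes. DESeq2 with the mouse as a block called 0 of the 10 genes as well. The log2 fold changes lay between -0.30 (Lcn2) and 0.10 (Saa2), and all 10 adjusted p-values were 1. For 7 of the 10 genes the whole interval lay within 0.5 on either side of 0. The other 3 were Lcn2 (interval -1.29 to 0.68), which rested on 30 to 84 counts a library, and Saa2 and Orm2, whose intervals reached 0.56 and -0.57.

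Orm1 in the same 3 mice was at 316, 255 and 223 CPM in 4n-top and at 309, 257 and 298 CPM in 4n-bottom. Mice 2 and 3 had like levels in the 2 populations and mouse 4 had less in 4n-top. Hp was at 1704, 2089 and 1968 CPM in 4n-top and at 1510, 2201 and 1778 CPM in 4n-bottom, and the direction was not the same in the 3 mice.

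Set against 2n-whole, neither enriched tetraploid population gave a call. In 4n-bottom against 2n-whole, 0 of 10 genes were called (0.463% of all genes) and 1 had an unadjusted p below 0.05 (10.2% of all genes). In 4n-top against 2n-whole, 0 of 10 were called (0.961% of all genes) and 3 had an unadjusted p below 0.05 (11.3% of all genes). Lcn2 was at 1.89, 1.44, 1.12 and 2.21 CPM in 4n-bottom (log2 fold change -1.17 ± 0.43 SE, adjusted p = 0.328) and at 0.923, 1.17 and 2.93 CPM in 4n-top (-1.47 ± 0.47 SE, adjusted p = 0.162). Orm1 was lower in 4 of 4 mice in 4n-bottom (-0.19, adjusted p = 0.577) and in 3 of 3 in 4n-top (-0.34, adjusted p = 0.231). These comparisons share the 2n-whole libraries with the first, and so are not separate evidence. Without mouse 1, Lcn2 passed the edgeR test in both (-1.76, adjusted p = 0.0427, and -1.77, adjusted p = 0.0205). It also did when mouse differences were removed with ComBat-seq before DESeq2 (-1.28, adjusted p = 0.0427, and -1.51, adjusted p = 0.0146). Mouse 1 was the only mouse with more Lcn2 in 4n-bottom than in 2n-whole (log2 difference 1.04). Lcn2 passed in neither comparison without mouse 2, 3 or 4, without the mouse block, or by DESeq2 with the block. Between 4n-whole and the enriched populations, 0 of 10 genes were called. The edgeR test called 0.00572% of all genes against 4n-bottom and 0% against 4n-top, with 974 (5.57%) and 700 (4%) of all genes at an unadjusted p below 0.05, among them 2 and 0 of the 10.

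**Figure D3:**
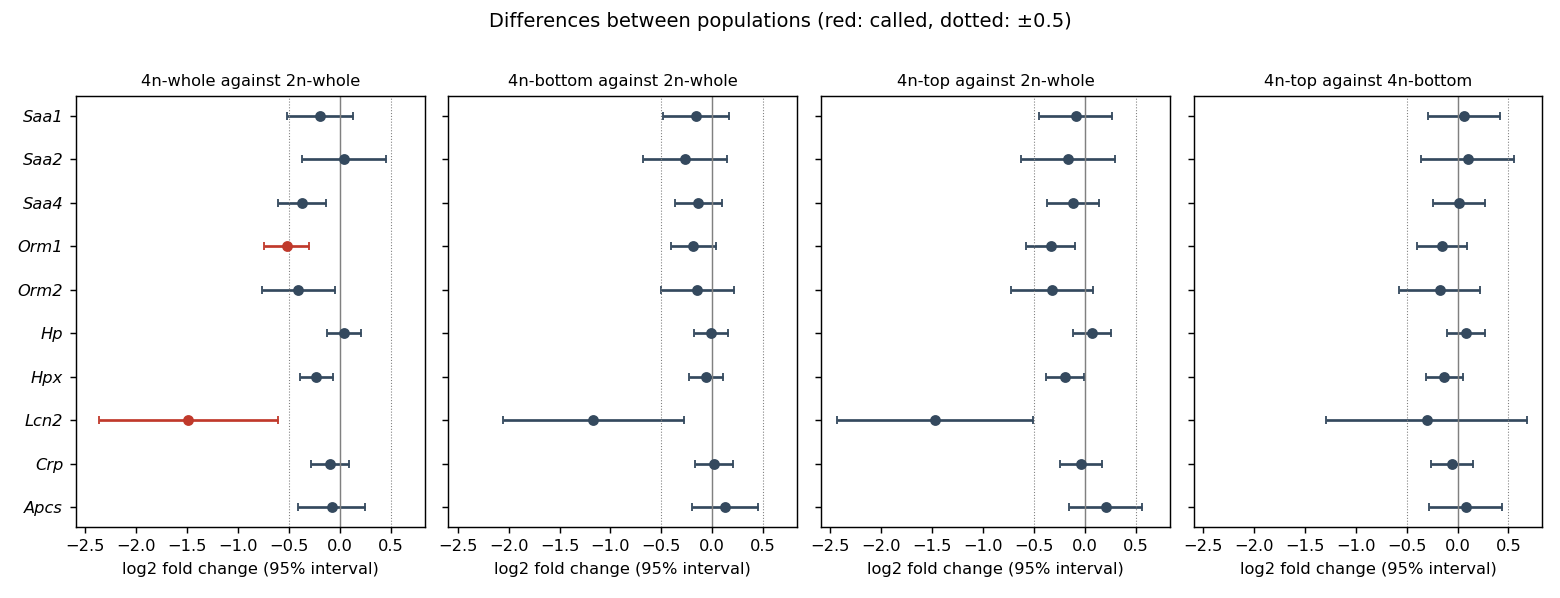
Log2 fold change (horizontal axis, with 95% intervals from the edgeR fit) of the 10 genes in the 4 main comparisons, with red for genes called and dotted lines at 0.5 on either side of 0. Orm1 (-0.52) and Lcn2 (-1.49) are red in 4n-whole against 2n-whole, and no gene is red in the other 3 panels.

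More of the 10 genes were called among mice than in any comparison of populations. In the F test of the 3 mouse terms, 9 of the 10 genes differed among mice (edgeR, adjusted p below 0.05), against 19.2% of all genes and 30.6% of the 10052 genes at least as abundant as Lcn2. Lcn2 was the exception (adjusted p = 0.301). Leaving out 1 mouse at a time left 6 to 8 genes called. A mouse stands here for 1 liver with its own perfusion and sort, and these cannot be told apart. The test compares the mice with the spread left among libraries once population and mouse are fitted. The libraries of a mouse come from the same liver, so its p-values do not measure how a mouse would repeat.

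Saa1 had the second smallest p of the 10 genes (adjusted p = 3.79e-05). It averaged 28.7 ± 9.24 CPM in mouse 1 (SD over the 3 libraries other than 4n-top), 24.7 ± 4.26 in mouse 2, 17.9 ± 3.50 in mouse 3 and 12.6 ± 0.819 in mouse 4. The 4 libraries of mouse 4 (11.7 to 13.5 CPM) lay below the other 11 (15.7 to 39.4 CPM). Saa2, its neighbour on chromosome 7, had another order, with mouse 2 highest at 13.0 ± 3.09 CPM and mouse 3 lowest at 4.75 ± 0.656, a ratio of 2.75 (adjusted p = 1.04e-04). Saa4 was highest in mouse 3, whose 4 libraries (217 to 250 CPM) lay above the other 11 (115 to 212 CPM; adjusted p = 0.00203).

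Hp had the smallest p (adjusted p = 3.19e-05) and ran the other way from Saa1 in mouse 1. It averaged 1281 ± 108 CPM in mouse 1, 1634 ± 169 in mouse 2, 2026 ± 153 in mouse 3 and 1860 ± 119 in mouse 4. The 3 libraries of mouse 1 (1198 to 1403 CPM) lay below the other 12 (1510 to 2201 CPM). Mouse 1 was by contrast the highest for Orm1 (420 CPM, against 266 in mouse 4; adjusted p = 3.12e-04), Orm2 (12.5 CPM, against 7.57 in mouse 3; adjusted p = 0.029) and Apcs (30.1 CPM, against 18.5 in mouse 4; adjusted p = 0.0106). Crp ranged from 161 CPM in mouse 2 to 214 in mouse 3 (adjusted p = 0.00516), and Hpx only from 3636 in mouse 4 to 4294 in mouse 2 (adjusted p = 0.0276).

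No mouse was therefore high or low for the whole set. By mean CPM, mouse 1 was highest for 4 of the 10 genes and lowest for 2, mouse 3 highest for 4 and lowest for 2, mouse 2 highest for 2 and lowest for 2, and mouse 4 highest for 0 and lowest for 4. Across the 15 libraries, which share mice and so are not independent, Pearson's r was 0.76 between Orm1 and Apcs and 0.65 between Orm1 and Orm2. It was -0.76 between Orm1 and Hp and -0.82 between Saa2 and Crp. Between Saa1 and Saa2 it was 0.62.

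**Figure D4:**
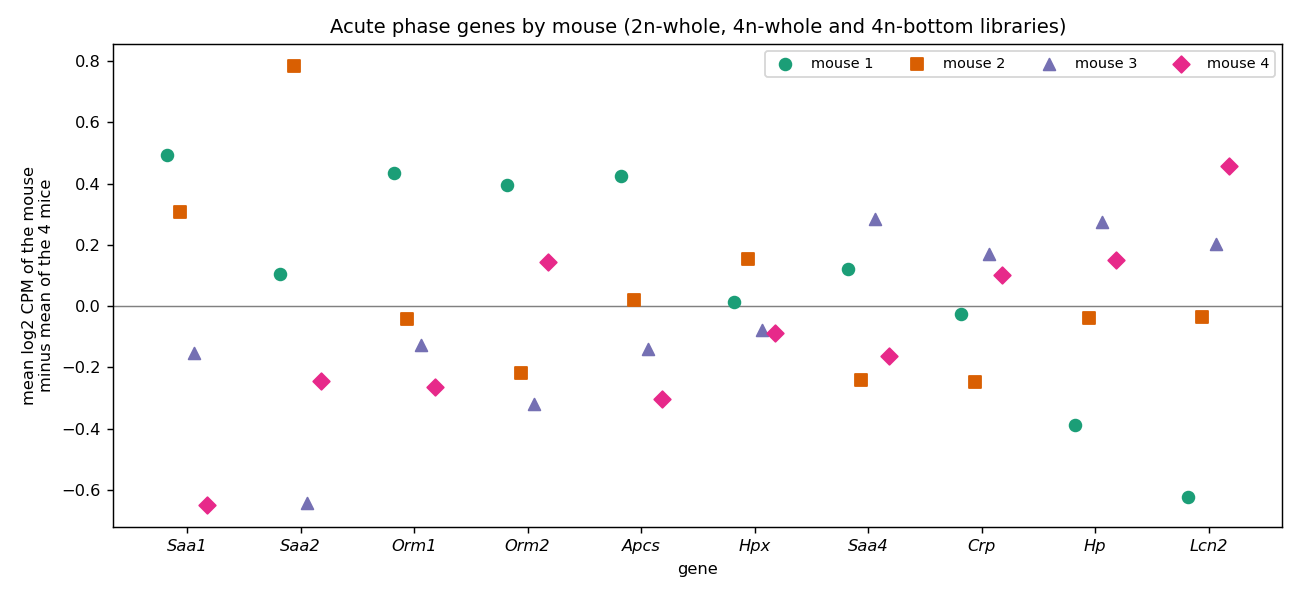
Mean log2 CPM of each mouse minus the mean of the 4 mice (vertical axis) for each gene (horizontal axis), over the libraries of all populations but 4n-top. Mouse 1 is high for Saa1, Orm1, Orm2 and Apcs and low for Hp, and no mouse keeps its place across the 10 genes.

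Over the 12 libraries of the 3 populations that every mouse has, mouse took a median of 57.3% of the variance of log2 CPM of the 10 genes, and population 13.6%. The median over all tested genes was 36.5% for mouse and 15.38% for population. For Hp the shares were 87.2% and 0.756%, for Saa2 83.6% and 5.48%, and for Saa1 78.0% and 2.50%. The mouse share exceeded that of the median gene in 8 of 10 genes (not in Hpx and Lcn2). It exceeded the gene's own population share in 9 of 10, but the medians over all tested genes had the same order. The share of all genes with that order was not counted. With 4 mice and 3 populations, mouse also had more groups over which to take variance. Orm1 was divided more evenly, with 49.2% for mouse and 34.7% for population. Lcn2 was the only one of the 10 with a larger share for population (38.7%) than for mouse (21.0%).

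**Figure D5:**
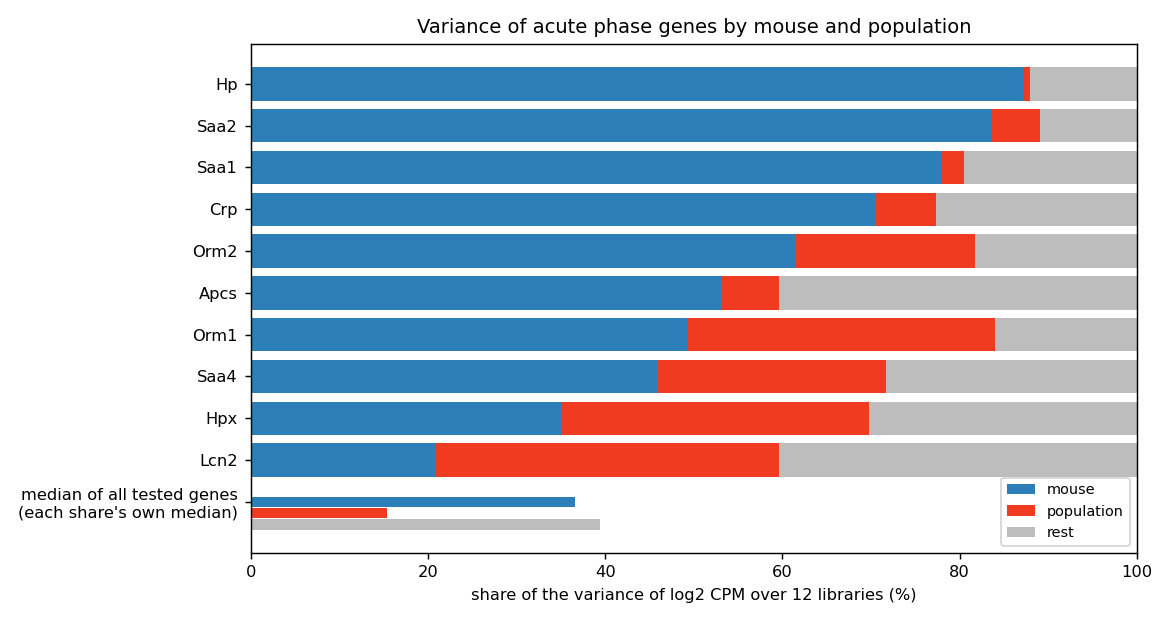
Share of the variance of log2 CPM (horizontal axis, %) that lies between mice (blue), between populations (red) and in the rest (grey), for each gene over 12 libraries, with the median of each share over all tested genes as separate bars at the foot. Hp, Saa2 and Saa1 have the longest blue bars (87.2%, 83.6% and 78.0%), and Lcn2 the shortest (21.0%).

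Few other genes of the acute phase response were called between populations, but many had a low unadjusted p. Of 29 further positive acute phase genes, 28 were tested. In 4n-whole against 2n-whole their median log2 fold change was -0.11, and 1 was called, F8 (coagulation factor VIII, made mainly by endothelial cells), which fell from 5.75 ± 1.63 to 3.00 ± 1.05 CPM (SD, n = 4 each; log2 fold change -0.96, adjusted p = 0.0183). The share called, 3.57%, is near the 3.47% of all genes. At an unadjusted p below 0.05 (edgeR) the count was 13 of 28, against 20.4% of all genes. Among mice, 15 of the 28 (53.6%) differed, against 19.2% of all genes. Over genes at least as abundant as Lcn2 the share was 30.6%. Neither this list nor those below were matched for abundance. Mt1 (metallothionein 1, a metal binding protein) was among them, at 55.5, 53.2, 307 and 94.8 CPM in mice 1 to 4 (edgeR adjusted p = 3.11e-15). The fibrinogen chain gene Fga was highest in mouse 1, as Orm1 was, at 4079 CPM against 2897 in mouse 4.

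Saa3 and Orm3, the remaining members of the serum amyloid A and orosomucoid families, were low. Saa3 was at 2.48 ± 0.360 CPM in 2n-whole and 1.93 ± 0.647 in 4n-whole, and did not differ detectably among mice (adjusted p = 0.58). Orm3 was at 1.50 ± 0.479 and 1.36 ± 0.654 CPM.

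Negative acute phase genes, whose products fall during inflammation, gave 2 calls among 15 (13.3%) in 4n-whole against 2n-whole, against 3.47% of all genes. Their median log2 fold change was -0.07. At an unadjusted p below 0.05 (edgeR) the count was 9 of 15, against 20.4% of all genes. Pon1 (paraoxonase 1) rose in 4n-whole (131 ± 34.0 to 199 ± 62.1 CPM, log2 fold change 0.59, adjusted p = 0.00766) and in 4n-top (0.76, adjusted p = 0.00236). Mup20 (a major urinary protein) fell in both, from 1945 ± 166 to 935 ± 136 CPM in 4n-whole (-1.06, adjusted p = 1.85e-07) with a log2 fold change of -0.89 in 4n-top (adjusted p = 1.95e-05). The 2 genes moved in opposite directions. Mup20 belongs to a large family of close copies, so its counts are uncertain. Among mice, 8 of the 15 (53.3%) differed, against 19.2% of all genes.

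Of 33 genes for cytokine receptors and their signalling, 32 were tested and 14 (43.8%) differed among mice, against 19.2% of all genes. Of these 32, 0 were called in any of the 4 main comparisons, in which 0.0114% to 3.47% of all genes were called. In 4n-whole against 2n-whole their median log2 fold change was -0.06, and edgeR gave 8 of the 32 an unadjusted p below 0.05, against 20.4% of all genes. The examples that follow were chosen after their values were seen. Socs3, an inhibitor of interleukin 6 signalling that is itself induced by STAT3, was at 47.9, 130, 35.6 and 48.1 CPM in mice 1 to 4 (adjusted p = 5.94e-13). Il6ra, the interleukin 6 receptor, was at 20.8, 17.5, 55.2 and 28.8 CPM (adjusted p = 4.12e-10). Mouse 2, with the most Socs3, also had the most Saa2, and mouse 3, with the most Il6ra and the least Socs3, had the least Saa2. Saa1 did not share this order. Mice 1 and 4 had like levels of Socs3, while Saa1 was highest in mouse 1 (28.7 CPM) and lowest in mouse 4 (12.6 CPM). With 4 mice this is a description and no test. Of 14 transcription factors of acute phase genes, 0 were called by edgeR between populations, where at most 3.47% of all genes were called. In 4n-whole against 2n-whole 4 of the 14 had an unadjusted p below 0.05, against 20.4% of all genes. The median log2 fold change of the 14 was 0.11. Among mice 11 of them (78.6%) differed, against 19.2% of all genes. Onecut1 (a liver-enriched factor) ranged from 9.00 CPM in mouse 3 to 47.7 in mouse 2 (adjusted p = 9.41e-13).

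Genes known to respond to tissue dissociation were read because the cells had been perfused and sorted. Dates and batches of these steps are not given in the sources used here. Of 22 dissociation genes, 20 were tested, and 18 of these (90%) differed among mice, against 19.2% of all genes. The share was the same for the 10 acute phase genes. In 4n-whole against 2n-whole, edgeR called 3 of the 20 (15%), against 3.47% of all genes. Gadd45g (0.68, adjusted p = 0.00615) and Hspa1b (0.86, adjusted p = 0.0146) rose and Klf6 fell (-0.68, adjusted p = 0.012). The median log2 fold change of the 20 was 0.27. At an unadjusted p below 0.05 the count was 10 of 20, against 20.4% of all genes. Hspa1b has a near-identical copy, so its counts are uncertain. The part of dissociation in the differences of the acute phase genes, among mice or between populations, was not tested.

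The genes with levels most like those of Saa1, Orm1 and Hp over the 15 libraries were sought among 7364 genes with a mean log2 CPM of at least 3. For Orm1 they were Hc (complement C5; Pearson's r = 0.97), C8a (a complement C8 chain; 0.96), Rab6a, Ugt2b38 and Arhgap42. For Hp they were Ilrun (0.95), Asl (argininosuccinate lyase of the urea cycle; 0.95), Cry1, Stard10 and Gc. For Saa1 they were Palld (0.93), Slc20a1, Ube2f, Selenbp2 and Tacc1. These correlations are descriptions over 15 libraries from 4 mice that share liver, perfusion and sort.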

How the data were processed

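Per the labels and the study's methods, total RNA of sorted mouse hepatocytes was made into libraries with a SMART-Seq Stranded kit. The authors aligned reads to GRCm39 with STAR (2.7.11a per the submitters' processing notes) and counted them per gene with featureCounts. The deposited values are raw counts, with no normalization. The annotation, strand setting and handling of read pairs are not given in the sources used here. Between 74.2% and 81.4% of counts from 1 to 10 were even per library, so a count may not be a single fragment. No library pair was identical. The study left out the 4n-top sample of mouse 1 for poor RNA quality, and it was not analysed here.

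The 10 genes and all lists were chosen with earlier results of these data known. Named genes were mainly the 10 genes, genes called in a main comparison from other lists, and the 5 genes most like Saa1, Orm1 and Hp. Not every called gene of the other lists was named. Further genes were named outside this rule, among them Mt1, Fga, Saa3, Orm3, Socs3, Il6ra, Onecut1, Clec4f, Krt19 and Epcam. Genes passing a filter (minimum count 10, total 15) were fitted with edgeR 4.0.16 in R 4.3.3 (TMM, quasi-likelihood, population plus mouse, all 15 libraries), adjusted by Benjamini-Hochberg over 17488 genes. The study's own route (ComBat-seq, then DESeq2) is an alternative (sva 3.50.0, DESeq2 1.42.0), since removing batches before a test leaves the lost degrees of freedom uncounted. The labels' subject number was taken as the mouse: 20 of 21 same-mouse pairs had residual correlations over 0.1 (mean 0.158). The fit was tested on counts simulated for 4n-whole against 2n-whole. It recovered 51 of 100 changes of 1 and 71 of 100 changes of 2 on the log2 scale. Among genes with a log2 CPM of at least 3 it recovered 41 of 41 and 47 of 47. Of 127 calls, 5 were false. Changes as small as that of Orm1 were not simulated, and Lcn2 lies below that abundance. Depth limits Lcn2 most. The intervals of fold changes come from the fit and include the spread between libraries, while the floor of 3 counts covers counting error only. Gene positions, promoters and coding sequences came from GENCODE M39 and the GRCm39 genome.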

Additional observations from a re-analysis of the deposited data

How the results depend on the processing

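Without the mouse block, 0 of the 10 genes were called in 4n-whole against 2n-whole in place of 2, and the counts over all genes fell from 607 to 40 in that comparison, from 2 to 0 in 4n-top against 4n-bottom, from 81 to 0 in 4n-bottom against 2n-whole and from 168 to 2 in 4n-top against 2n-whole. At an unadjusted p below 0.05 the fit without the block still had 2027, 335, 866 and 1335 genes in these 4 comparisons. DESeq2 size factors, no filter on low counts, DESeq2 with the block, ComBat-seq followed by DESeq2, no limit on the fold change and the omission of the 2n-whole library of mouse 1 (chosen after seeing the data) each kept Orm1 and Lcn2 as the 2 called genes in 4n-whole against 2n-whole. ComBat-seq followed by DESeq2 gave 1184 genes there, 19 in 4n-top against 4n-bottom, 309 in 4n-bottom against 2n-whole and 595 in 4n-top against 2n-whole, and 1 of the 10 genes (Lcn2) in each of the last 2. DESeq2 with the block gave 49, 143 and 329 genes, no filter gave 25, 145 and 261 genes in these 3 comparisons, and no limit on the fold change gave 957 genes in 4n-whole against 2n-whole.

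Leaving out 1 mouse at a time gave 0 to 3 of the 10 genes in 4n-whole against 2n-whole (Lcn2, Orm1 and Saa4 without mouse 1, none without mouse 2, Orm1 without mouse 3, none without mouse 4), 0 to 1 in 4n-bottom and in 4n-top against 2n-whole, and 6 to 8 among mice. Over all genes it gave 244 to 1025, 49 to 111 and 98 to 238 genes in these 3 population comparisons, 0 to 29 in 4n-top against 4n-bottom, and 2125 to 3133 among mice, the lowest of these without mouse 3, against 3358 with all mice. The cause was not tested, other than that fewer samples were fitted.

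Of 550 log2 fold changes of the 10 genes under alternatives, 504 kept direction and call, 5 gained a call, 7 lost one and 34 changed sign. The changes of sign were all of values that had not passed, at most 0.30 in size. Without the block the new values were -0.083 (Saa1), 0.0025 (Lcn2) and -0.054 (Apcs) in 4n-top against 4n-bottom, 0.0079 (Hp) in 4n-bottom against 2n-whole, 0.010 (Saa1) in 4n-whole against 4n-bottom, and 0.093 (Saa1) and 0.094 (Orm2) in 4n-whole against 4n-top. Crp in 4n-bottom against 2n-whole became -0.0013 with DESeq2 size factors and -0.0012 with DESeq2 with the block. Saa1 in 4n-whole against 2n-whole became 0.016 without the 2n-whole library of mouse 1. Leaving out 1 mouse gave, in 4n-whole against 2n-whole, -0.37 to 0.024 (Saa1), -0.065 to 0.24 (Saa2), -0.025 to 0.13 (Hp) and -0.24 to 0.087 (Apcs), and in 4n-top against 4n-bottom -0.0017 to 0.21 (Saa1), -0.17 to 0.34 (Saa2) and -0.051 to 0.098 (Saa4). In 4n-bottom against 2n-whole it gave -0.37 to 0.054 (Saa1), -0.086 to 0.039 (Hp), -0.011 to 0.076 (Crp) and -0.016 to 0.17 (Apcs), and in 4n-top against 2n-whole -0.15 to 0.052 (Saa1). In 4n-whole against 4n-bottom it gave -0.22 to 0.13 (Saa1), -0.0091 to 0.13 (Hp) and -0.41 to 0.018 (Apcs), and in 4n-whole against 4n-top -0.14 to 0.098 (Orm2), -0.063 to 0.014 (Hp), -0.065 to 0.012 (Hpx) and -0.19 to 0.42 (Lcn2).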
